A study of Mus musculus with 12 samples.

Results

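The genes described here are 43 genes of the G2 phase and mitosis, chosen by name: kinases, cyclins, kinetochore and checkpoint proteins, genes around the anaphase-promoting complex, kinesins, spindle and cytokinesis proteins and chromosome condensation factors. The array holds 46133 probes, and those with 1 gene symbol name 17658 genes. Of the 43 genes 40 are among them, with 77 probes, and Ccnb1, Cenpf and Espl1 were not analysed here. Each gene was read from 1 probe, the one with the highest mean over the 12 arrays. Of these 40 probes 36 exceeded an intensity of 32 on at least 3 arrays and were tested, 35 of them lying above 32 on all 12 arrays. Bub1 was the exception, with intensities between 15.1 and 40.5. The probes of Nek2, Ccnb2, Kif11 and Kif20a lay below 32 on all 12 arrays and were not tested.

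The study measured total RNA of E14 mouse embryonic stem (ES) cells, grown without feeder cells on gelatin in serum medium with LIF, on one-colour Illumina bead arrays. In 3 cultures (Jmjd1a) a short hairpin RNA against Jmjd1a, now called Kdm3a, was expressed from the pSUPER puro plasmid. In 3 further cultures (Jmjd2c) the hairpin was against Jmjd2c, now called Kdm4c, and in 6 control cultures (Luc) it was against firefly luciferase, which mouse cells lack. All groups received 2 µg of plasmid, and the Luc labels give puromycin selection at 1 µg/ml for 4 days, while the text for the knockdown cultures breaks off where the selection is described. No clone and no second hairpin per gene is described, and both targets encode demethylases of lysine 9 of histone H3.

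Entry into mitosis is driven by Cdk1 bound to cyclins A and B, which Cdc25 phosphatases activate and which the Plk1 and Aurora kinases assist. The spindle checkpoint holds back the anaphase-promoting complex (APC/C), a ubiquitin ligase, until kinetochores are attached; its activator Cdc20 and the E2 enzyme Ube2c then bring about the destruction of cyclins and of securin (Pttg1). Many of these genes are transcribed in a shared late wave of the cell cycle, through CCAAT boxes bound by NF-Y and a cell cycle homology region (CHR) bound by MuvB complexes with B-Myb and FoxM1. ES cells divide fast and pass through a short G1 phase.

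The promoter letters are shown because they are a feature that the choice of genes did not use. RefSeq windows (GRCm38.p6) from 250 bases before to 50 bases after the annotated start were available for 36 of the 43 genes; Aurkb, Ccna2, Cdc25c, Incenp, Kif20a, Smc4 and Tpx2 are named only. The CHR letters TTTGAA, on either strand, were in a window of 26 of the 36 (72.2%), against 20.2% of all 27025 genes with a window. CCAAT, on either strand, was in 28 (77.8%), against 41.1% of all genes. Neither motif contains the other. In 23 of the 36 both were found and in 5 neither was. A match is a description of letters, not a bound site. The 120 bases before the start of 7 genes are given on the strand of the gene, 5′ to 3′, with both motifs, read on either strand, in capitals. They are the 5 genes Cdk1, Ube2c, Cdc20, Top2a and Aurka, taken from the kinases, the APC/C genes and the condensation factors, then Hmmr, which has 3 CCAAT matches in this stretch, and Pttg1, the gene that changed most in Jmjd2c against Luc 4-6 and whose whole window holds neither motif.
Cdk1, chr10:69352913-69353032, minus strand: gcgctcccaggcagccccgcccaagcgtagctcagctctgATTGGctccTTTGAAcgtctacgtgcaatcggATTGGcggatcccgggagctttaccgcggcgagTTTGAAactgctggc
Ube2c, chr2:164769809-164769928, plus strand: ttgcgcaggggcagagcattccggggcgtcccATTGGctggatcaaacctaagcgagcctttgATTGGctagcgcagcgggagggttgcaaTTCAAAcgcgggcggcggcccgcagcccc
Cdc20, chr4:118437344-118437463, minus strand: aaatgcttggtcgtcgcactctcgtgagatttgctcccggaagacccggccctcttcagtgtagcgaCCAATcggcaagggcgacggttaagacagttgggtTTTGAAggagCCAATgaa
Top2a, chr11:99024190-99024309, minus strand: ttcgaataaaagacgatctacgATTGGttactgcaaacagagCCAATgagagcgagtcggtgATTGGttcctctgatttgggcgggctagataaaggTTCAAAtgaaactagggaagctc
Aurka, chr2:172370571-172370690, minus strand: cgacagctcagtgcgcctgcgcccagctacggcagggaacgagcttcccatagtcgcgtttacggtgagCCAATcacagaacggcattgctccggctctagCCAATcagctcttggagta
Hmmr, chr11:40733438-40733557, minus strand: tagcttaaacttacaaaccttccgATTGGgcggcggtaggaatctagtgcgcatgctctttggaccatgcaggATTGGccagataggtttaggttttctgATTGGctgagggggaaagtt
Pttg1, chr11:43425982-43426101, minus strand: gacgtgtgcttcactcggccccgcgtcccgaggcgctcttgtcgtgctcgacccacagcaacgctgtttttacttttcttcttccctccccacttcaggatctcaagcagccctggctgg
A CHR match begins 15 bases before the start in Cdk1, 29 in Ube2c, 18 in Cdc20 and 23 in Top2a, with at least 1 CCAAT match upstream of it in each. In Aurka and Hmmr the CHR match of the window lies after the start and is not printed. The only CHR match also lies after the start in Plk1, Cenpa, Cdca3 and Kif4, among others. A CHR match before the start, as in Cdk1, Ube2c, Cdc20 and Top2a, is thus not general among the genes with a match. In Aurka, Hmmr, Plk1, Cenpa, Cdca3 and Kif4 a CCAAT match still lay upstream of the CHR match.

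The targeted transcripts were low on the arrays labelled for them: both tested Kdm3a probes changed by -1.65 and -1.40 (log2) in Jmjd1a against Luc 1-3, and Kdm4c by -1.38 in Jmjd2c against Luc 4-6. Mean intensity per array was 236 to 245, with 13591 to 14996 probes above 32. The comparisons follow 2 sets of arrays by replicate number, which no label names as sets. Arrays of 1 group and set correlated at 0.995 to 0.997 over 15853 tested probes, arrays of different groups in 1 set at 0.980 to 0.988, and Luc 1-3 with Luc 4-6 only at 0.962 to 0.964. The first set holds Jmjd1a and Luc 1-3, the second Jmjd2c and Luc 4-6. Each knockdown is compared with the 3 Luc arrays of its own set, and values against all 6 Luc arrays, the comparison that the series describes, stand beside the counts. The ES cell label was borne by 7 of 8 marker genes, all but Dppa5a, which lay above 32 in each group, and 4 of 6 fibroblast or feeder markers, Col1a1, Col1a2, Lum and Postn, stayed at or below 32 on every array. Of the other 2, Dcn exceeded 32 on 1 array (32.5 in Jmjd1a) and Thy1, which is not limited to fibroblasts, on 11 of 12. The number of arrays, 3 in each of the 4 groups, limits the precision of every value.

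Over the 36 tested genes, the median deviation from the 12-array mean (log2) was -0.18 in the Jmjd1a arrays (range -0.19 to -0.17), 0.05 in the Jmjd2c arrays (0.03 to 0.07), 0.27 in Luc 4-6 (0.26 to 0.28) and -0.16 in Luc 1-3 (-0.17 to -0.15). Over all tested probes the group means of the same median were -0.07, 0.06, 0.04 and -0.06. The mitotic genes thus stood highest in the control arrays of the second set, in the middle in Jmjd2c, and lowest in both groups of the first set. The heat map of the tested genes shows this for single genes and arrays.

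**Figure D1:**
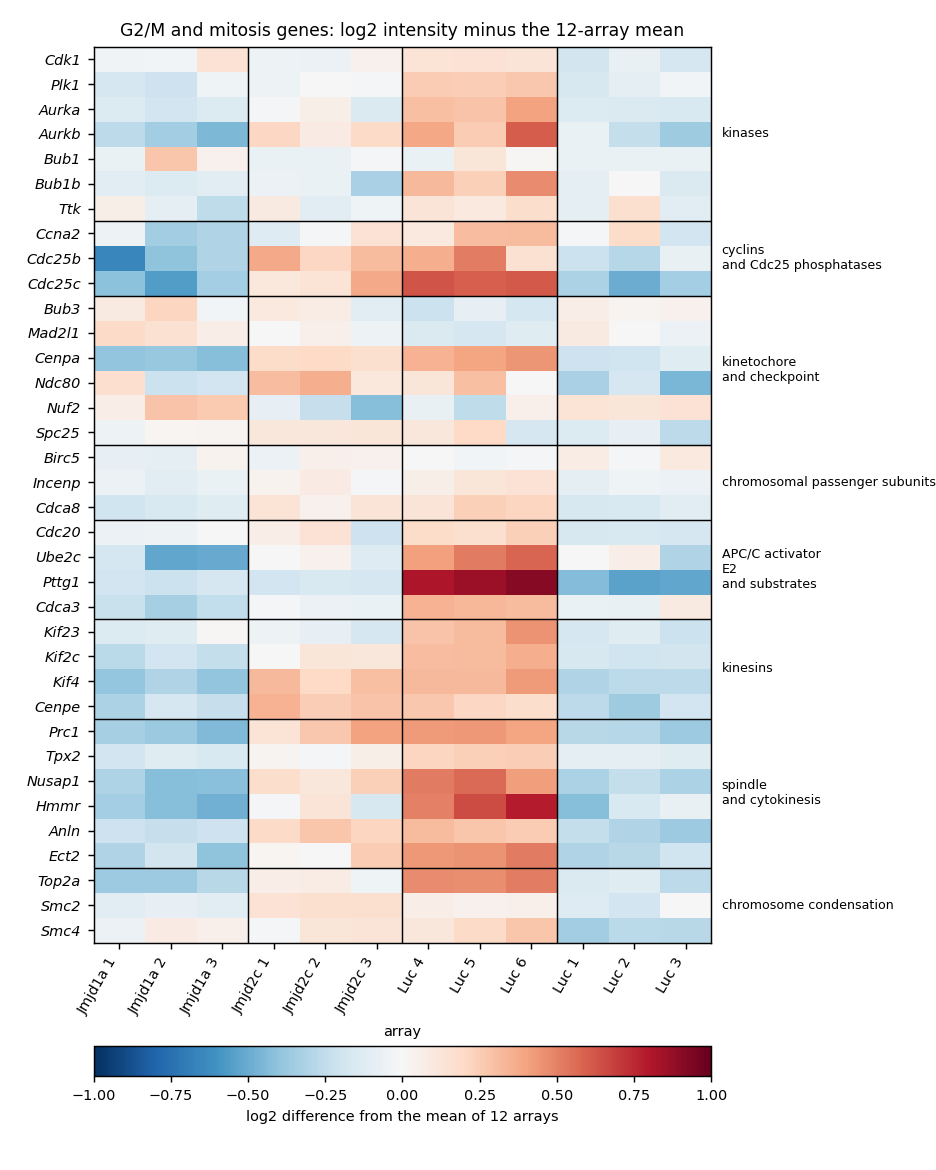
Heat map of the 36 tested genes (rows, by role) on the 12 arrays (columns, 3 each of Jmjd1a, Jmjd2c, Luc 4-6 and Luc 1-3); colour is log2 intensity, floored at 32, minus the gene's mean over the 12 arrays. The Luc 4-6 columns are the reddest and Pttg1 the strongest row, while Bub3, Mad2l1 and Birc5 vary little.

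In Jmjd1a-depleted cells few of the mitotic genes changed. Against Luc 1-3, 2 of 36 rose (Pttg1 and Smc4), 2 fell (Cenpa and Cdca3) and 32 did not pass at an adjusted p under 0.05 in limma's test over all 15853 probes. In the same comparison 25.5% of all tested probes were called (13.4% higher, 12.1% lower), so 4 of 36 is a smaller share than the background. The median change of the 36 genes was -0.03 and that of all probes 0.00, and single genes ran from -0.33 (Ube2c) to 0.32 (Smc4). The simulation with known changes, over 15853 probes, recovered 36% of changes of 0.3 and 96% of changes of 0.6 (log2) between these groups. It planted 100 changes of each size, whereas 4040 probes were called in the data. The adjusted p was therefore harder to pass in the simulation, and its recovery does not measure that of the real comparison.

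Among the APC/C genes, Pttg1, which encodes securin, the inhibitor of separase, read 1421, 1398 and 1444 in the Jmjd1a arrays, against 1203, 1121 and 1134 in Luc 1-3. All 3 knockdown arrays lay above all 3 Luc arrays, a log2 change of 0.30 ± 0.05 (SE; adjusted p = 0.00118). Cdca3, a trigger of mitotic entry that is itself degraded through the APC/C, read 2217, 2053 and 2181 in Jmjd1a, against 2464, 2455 and 2756 in Luc 1-3. It was lower on every knockdown array, with a change of -0.25 ± 0.06 (SE; adjusted p = 0.00884). The E2 enzyme gene Ube2c, with 748, 588 and 595 in Jmjd1a against 848, 886 and 688 in Luc 1-3, differed by -0.33 ± 0.11 (SE; adjusted p = 0.0538); its groups overlap and it did not pass, though it did after median centring (adjusted p = 0.0409) and quantile normalization (0.0326). Cdc20 had a change of 0.13 (adjusted p = 0.283).

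At the kinetochore, Cenpa, the histone H3 variant of centromeres, read 4334, 4378 and 4226 in the Jmjd1a arrays, against 4911, 4963 and 5213 in Luc 1-3. The groups do not overlap and the change was -0.22 ± 0.05 (SE; adjusted p = 0.00719); a dimmer probe of the gene also fell (-0.24, adjusted p = 0.0482). The other 5 kinetochore and checkpoint genes had positive changes of 0.05 to 0.24 and none passed. Smc4, a core subunit of condensin, read 482, 532 and 522 in Jmjd1a, against 396, 416 and 415 in Luc 1-3, a change of 0.32 ± 0.07 (SE; adjusted p = 0.0038). That rise rests on this probe alone: the 2 dimmer tested Smc4 probes had changes of -0.09 and -0.14 (adjusted p = 0.498 and 0.260), and the mean of the 3 probes changed by 0.03 (adjusted p = 0.802).

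None of the 7 tested kinases passed, with changes between -0.13 (Aurkb) and 0.17 (Cdk1, adjusted p = 0.0726). The same holds for the 3 cyclin and Cdc25 genes and the 3 subunits of the chromosomal passenger complex. It also holds for the 4 tested kinesins (-0.09 to 0.09) and the 6 spindle and cytokinesis genes (-0.20 to 0.09). Cdc25c had -0.05 on its brightest probe, but a 2nd probe was called lower (-0.32, adjusted p = 0.00958). Its 3rd probe did not pass (-0.14, adjusted p = 0.161). Counted by array values, 6 of 36 genes had all 3 Jmjd1a arrays above and 6 all 3 below Luc 1-3, where 21.5% and 19.3% of all tested probes did. Against all 6 Luc arrays 3 genes were called, with a median of -0.22, and 17.8% of all probes were. Pttg1 then changed sign, to -0.37 (adjusted p = 0.454); its Luc 4-6 arrays lie far above its Luc 1-3 arrays.

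In Jmjd2c-depleted cells part of the mitotic transcripts was lower than in Luc 4-6. Against Luc 4-6, 15 of 36 genes fell, 0 rose and 21 did not pass. Over all probes 39.0% were called, 18.2% lower and 20.7% higher, so the 41.7% called is near the background share, while all 15 calls are in 1 direction. The median change was -0.18, against 0.01 for all tested probes, and 29 of 36 changes were negative. In 19 of 36 genes all 3 Jmjd2c arrays lay below all 3 Luc 4-6 arrays and in 2 all above, against 23.2% and 26.7% of all probes. The comparison rests on the choice of control arrays. Against all 6 Luc arrays limma called 0 of 36 (3 at an unadjusted p under 0.05, 2 of them higher), with a median of -0.001, where 12% of all probes were called; against Luc 1-3, of the other set, the median was 0.20.

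**Figure D2:**
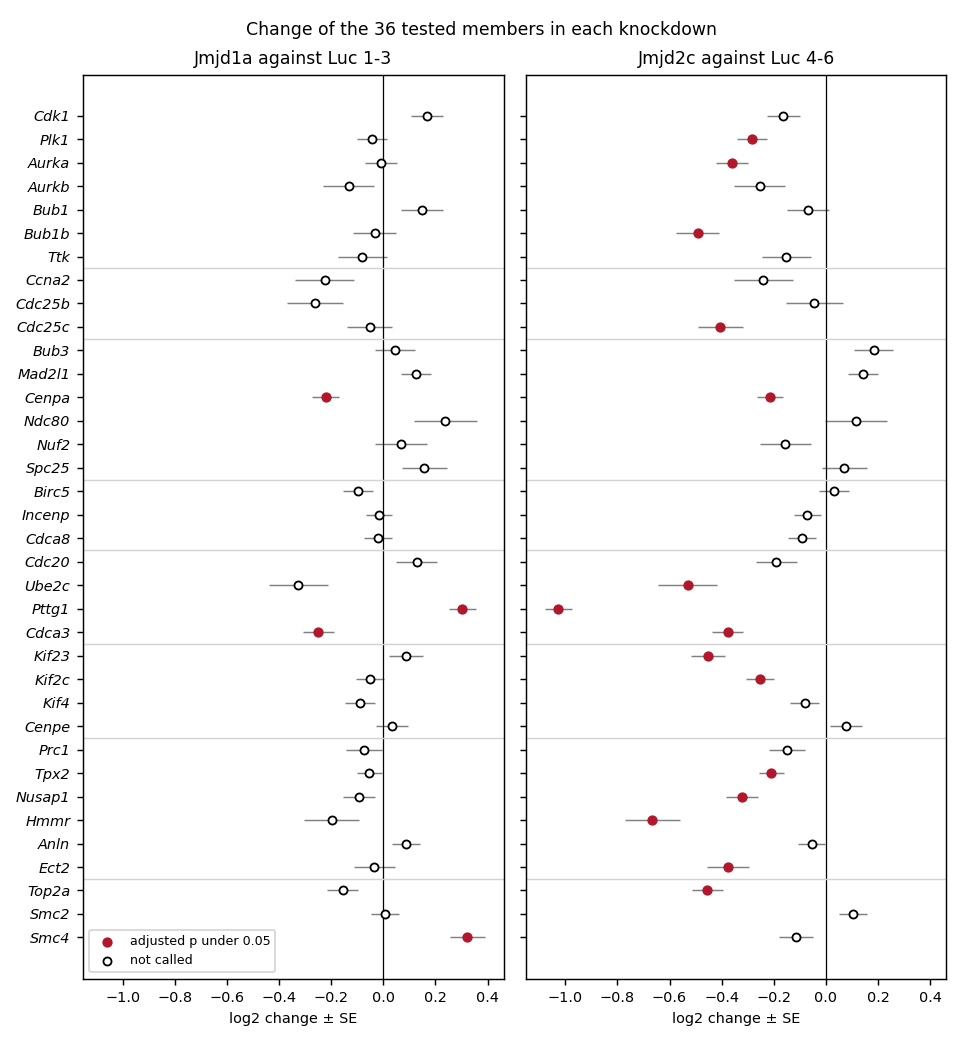
Log2 change ± SE of the 36 tested genes, ordered by role, in Jmjd1a against Luc 1-3 (left) and Jmjd2c against Luc 4-6 (right); filled red points have an adjusted p under 0.05. On the left 4 points are filled and lie on both sides of 0; on the right 15 are filled and all lie below 0, with Pttg1 farthest out at -1.03.

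The APC/C genes had the lowest median of the 8 roles (-0.45). Pttg1 read 1424, 1463 and 1444 in the Jmjd2c arrays, against 2842, 2939 and 3048 in Luc 4-6, so the geometric mean of the knockdown arrays was 49.1% of that of the controls. Its change was -1.03 ± 0.05 (SE; adjusted p = 7.86e-08). Ube2c, the gene of the E2 enzyme that works with the APC/C, read 843, 873 and 775 in Jmjd2c, against 1121, 1212 and 1266 in Luc 4-6, a change of -0.53 ± 0.11 (SE; adjusted p = 0.00304). Cdca3 read 2558, 2480.3 and 2473, against 3283, 3256 and 3218 in Luc 4-6, a change of -0.38 ± 0.06 (SE; adjusted p = 0.000402). In all 3 genes the groups are apart. Cdc20, with 1700.2, 1795 and 1406 in Jmjd2c and 1837, 1813 and 1914 in Luc 4-6, was lower on every array without passing, with a change of -0.19 ± 0.08 (SE; adjusted p = 0.0785). Of its 2 other tested probes 1 was called (-0.19, adjusted p = 0.0124).

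Of the 7 tested kinases 3 fell. Bub1b, the checkpoint protein BubR1, read 1132, 1126 and 939 in Jmjd2c, against 1471, 1389.7 and 1629 in Luc 4-6, a change of -0.49 ± 0.08 (SE; adjusted p = 0.00067). Aurka, the centrosomal Aurora kinase, read 1833, 1924 and 1668 in Jmjd2c, against 2273, 2253 and 2439 in Luc 4-6, a change of -0.36 ± 0.06 (SE; adjusted p = 0.000721). Plk1, the polo-like kinase, read 2399, 2482 and 2444, against 2966, 2950.2 and 2995 in Luc 4-6, a change of -0.28 ± 0.06 (SE; adjusted p = 0.00257). Each of the 3 lay lower on every knockdown array. Aurkb (-0.25, adjusted p = 0.0609) and Cdk1 (-0.16, adjusted p = 0.0585) also had no overlap but did not pass, nor did Ttk (-0.15), while Bub1 (-0.07) overlapped. With quantile normalization 5 of the 7 kinases were called lower, Cdk1 (adjusted p = 0.0155) and Aurkb (adjusted p = 0.0353) among them, and with median centring 4, Cdk1 among them (adjusted p = 0.0489).

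Of the cyclin and Cdc25 genes, Cdc25c, a phosphatase that activates Cdk1, fell: it read 187, 192 and 227 in Jmjd2c, against 269, 264 and 267 in Luc 4-6, a change of -0.41 ± 0.09 (SE; adjusted p = 0.00291). A 2nd probe of it fell too (-0.48) and a 3rd, the dimmest, did not pass (-0.04). Ccna2, cyclin A2, differed by -0.24 ± 0.11 (SE; adjusted p = 0.12) and its groups overlap. Of the 6 genes listed as kinetochore and checkpoint only Cenpa passed, while the checkpoint gene Bub1b, listed with the kinases, fell as given above. Cenpa read 6439, 6526 and 6359 in Jmjd2c against 7223, 7484 and 7706 in Luc 4-6, a change of -0.21 ± 0.05 (SE; adjusted p = 0.00573). The checkpoint genes Bub3 and Mad2l1 had positive changes of 0.18 and 0.14 (adjusted p = 0.0767 and 0.073). The 3 chromosomal passenger subunits Birc5 (survivin), Incenp and Cdca8 (borealin) had changes between -0.09 and 0.03 and none passed.

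Among the 4 tested kinesins 2 fell. Kif23, a motor of the central spindle, read 2037, 1985 and 1871 in Jmjd2c, against 2564, 2622 and 2884 in Luc 4-6, a change of -0.45 ± 0.07 (SE; adjusted p = 0.000239). Kif2c, which depolymerises microtubules at centromeres, read 817, 890.2 and 884, against 1014, 1020 and 1053 in Luc 4-6, a change of -0.25 ± 0.05 (SE; adjusted p = 0.00268). Both are apart from their controls, whereas the chromokinesin gene Kif4 (-0.08) and the kinetochore motor gene Cenpe (0.08) overlap with theirs and did not pass.

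Of the 6 spindle and cytokinesis genes 4 fell. Hmmr, a spindle-associated protein, read 130.1, 144 and 118 in Jmjd2c, against 187, 207 and 227 in Luc 4-6, a change of -0.67 ± 0.11 (SE; adjusted p = 0.00046). Ect2, the exchange factor that activates RhoA at the cleavage site, read 137, 135 and 162, against 183, 185 and 194 in Luc 4-6, a change of -0.38 ± 0.08 (SE; adjusted p = 0.00295). In both genes every knockdown array was the lower, and a 2nd probe of each fell as well (-0.91 and -0.49). Nusap1, a microtubule-bundling protein, read 1874, 1799 and 1964 in Jmjd2c, against 2378, 2457 and 2222 in Luc 4-6, a change of -0.32 ± 0.06 (SE; adjusted p = 0.00148). Tpx2, the activator of Aurora A on the spindle, read 3064, 2973 and 3124, against 3486, 3551 and 3553 in Luc 4-6, a change of -0.21 ± 0.05 (SE; adjusted p = 0.00464). Prc1 (-0.15) and anillin, Anln (-0.06), did not pass.

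Top2a, the topoisomerase that untangles sister chromatids, read 2026, 2039 and 1878 in Jmjd2c, against 2693, 2684 and 2765 in Luc 4-6, a change of -0.45 ± 0.06 (SE; adjusted p = 0.000101); its groups are apart and a 2nd probe fell by 0.55. The condensin gene Smc4 did not pass on its brightest probe (-0.11), while the dimmest of its 3 tested probes fell (-0.41, adjusted p = 0.00195). For Smc2 the brightest probe stood at 0.10 (adjusted p = 0.159) and the dimmest fell by 0.79 (adjusted p = 1.54e-05). Of 13 genes with more than 1 tested probe, 9 had the same call on every probe in this comparison and 0 were called in opposite directions; Cdc20, Cdc25c, Smc2 and Smc4 differed.

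Several markers of other cell types moved with the groups. Of 5 tested endoderm markers 4 rose in Jmjd2c, where 20.7% of all tested probes rose. Lama1, counted among these 4, lay above 32 only on the 3 Jmjd2c arrays (40.1, 42.2 and 40.5). It was tested only through that group, and its call adds nothing to the count. Sox17 exceeded 32 on the 3 Jmjd2c arrays and on 2 of Luc 1-3, but on 0 of Luc 4-6. The summed intensity of the 6 endoderm markers on the array was 2214 to 2484 in Jmjd2c, against 696 to 713 in Luc 4-6. Dab2 (mean of 983) and Gata6 (mean of 885) held most of the sum in Jmjd2c, and Afp was at or below 32 on every array. The sum was 629 to 753 in Jmjd1a, against 1436 to 1482 in Luc 1-3, and 2 of the 5 fell there, where 12.1% of all probes fell. The summed ES cell markers were 22303 to 22999 in Jmjd2c, against 25948 to 27133 in Luc 4-6. In Jmjd1a they were 18901 to 19013, against 23895 to 25224 in Luc 1-3. Of 7 tested 3 fell in each knockdown, where 18.2% of all probes fell in Jmjd2c and 12.1% in Jmjd1a. Thy1 fell in both knockdowns, by 1.22 in Jmjd2c (adjusted p = 0.000801) and by 0.77 in Jmjd1a (adjusted p = 0.0194). Its Jmjd2c arrays read 34.7, 23 and 61, so the floor of 32 bears on the size of that change. Of the 3 tested neural markers Pax6 rose in Jmjd2c (0.90), while in Jmjd1a Pax6 (-1.06) and Tubb3 (-0.39) fell and Nes rose (0.74). Nes lay above 32 only on the 3 Jmjd1a arrays (47.4, 67.1 and 48.3). It was thus tested only through that group, with its controls set to the floor. Tbx6, the only mesoderm marker tested, was not called in Jmjd2c (-0.40, adjusted p = 0.0595) or Jmjd1a (-0.20, adjusted p = 0.393). The part of these markers in the values of the mitotic genes was not tested. In RNA of whole cultures, fewer cells in G2 and mitosis and less of a transcript per cell cannot be told apart.

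The Luc arrays of the 2 sets differed widely in mitotic genes. In Luc 4-6 against Luc 1-3, 28 of 36 genes were higher, 2 lower (Bub3 and Mad2l1) and 6 did not pass, where 58.0% of all tested probes were called, 37.1% higher and 20.9% lower. The median change was 0.47, against 0.10 for all probes, and the groups did not overlap in 28 genes above and 3 below (40.7% and 23.9% of all probes). Arrays of the second set also had more probes above 32, 14425 to 14996 against 13591 to 14012, and a higher median of all tested probes. With each array centred on that median, 18 genes were higher and 4 lower, with a median of 0.23, while the balance over all probes turned to 3485 higher and 6623 lower. Neither group carries a hairpin against a demethylase, and the labels do not say what separates the 2 groups.

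By role, on the brightest probe of each gene, all 4 kinesins and all 6 spindle and cytokinesis genes were higher in Luc 4-6. So were all 4 APC/C genes, all 3 condensation genes and 5 of 7 kinases. After median centring the calls were kept in all 4 kinesins, 5 of 6 spindle genes, 2 of 4 APC/C genes, 2 of 3 condensation genes and 2 of 7 kinases. Cdk1, Plk1, Bub1b, Ndc80, Cdca8, Cdc20, Cdca3 and Tpx2 then had positive changes that did not pass, and Incenp (-0.07) and Smc2 (-0.08) changed sign. As deposited, a 2nd probe did not pass in Ect2 (0.32, adjusted p = 0.13), Smc2 (0.10, adjusted p = 0.274) and Smc4 (0.0003). The dimmest tested probes of Smc2 (0.375) and Smc4 (0.47) were called higher. Kinetochore and checkpoint genes were mixed, with 2 of 6 higher and 2 lower and a median of 0.03, which was -0.22 after centring. Pttg1 again differed most, with the Luc 4-6 arrays given above against 1203, 1121 and 1134 in Luc 1-3, a change of 1.35 ± 0.05 (SE; adjusted p = 2.81e-09). Cdc25c changed by 1.00 ± 0.09 (SE; adjusted p = 1.3e-06), with 140.1, 123 and 138 in Luc 1-3, and Hmmr by 0.86 ± 0.11 (SE; adjusted p = 2.49e-05), with 98.2, 119 and 125 in Luc 1-3. No Luc 4-6 array of these 3 genes came down to a Luc 1-3 array.

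In the other roles the gene that differed most had a change between 0.33 and 0.66. Aurkb, the kinase of the chromosomal passenger complex, read 797, 727 and 928 in Luc 4-6, against 582, 519 and 476 in Luc 1-3, a change of 0.63 ± 0.10 (SE; adjusted p = 0.000157). Kif4 read 722, 723 and 775 in Luc 4-6, against 469, 481 and 482 in Luc 1-3, a change of 0.63 ± 0.06 (SE; adjusted p = 1.91e-06). Cdca8 read 1661, 1789.9 and 1759, against 1356, 1365 and 1410 in Luc 1-3, a change of 0.33 ± 0.05 (SE; adjusted p = 0.000205), which did not pass after median centring (0.09, adjusted p = 0.153). All 3 are without overlap. Top2a changed by 0.66 ± 0.06 (SE; adjusted p = 1.71e-06), with 1752, 1781 and 1615 in Luc 1-3, and Cenpa by 0.57 ± 0.05 (SE; adjusted p = 1.7e-06). Birc5 differed by -0.07 (adjusted p = 0.327) on its brightest probe, and 1 of its 2 other probes was called (0.17, adjusted p = 0.0365). After median centring its brightest probe was called lower (-0.31, adjusted p = 0.000763), as was Nuf2 (-0.47, adjusted p = 0.00179).

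**Figure D3:**
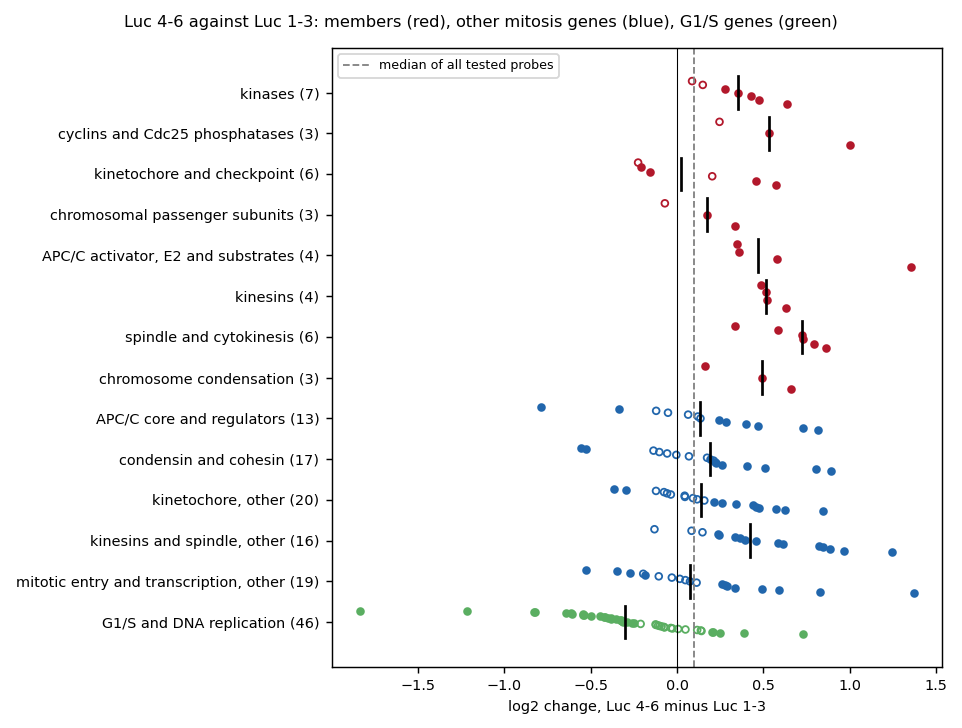
Log2 change in Luc 4-6 against Luc 1-3 for each tested gene by list (number tested in parentheses); filled points have an adjusted p under 0.05, black bars are list medians and the dashed line is the median of all tested probes (0.10). The 4 kinesins and 6 spindle genes lie wholly to the right of 0, and most G1/S genes to the left, with a median of -0.30.

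Luc 4-6 is the control of Jmjd2c and also the higher side of this comparison, so the fall in Jmjd2c and the gap between the Luc sets share those 3 arrays, and their values are only set side by side. For Pttg1 the means were 1421 ± 22.7 in Jmjd1a, 1444 ± 19.5 in Jmjd2c, 2943 ± 103 in Luc 4-6 and 1152 ± 43.9 in Luc 1-3 (SD, n = 3 each). The Jmjd2c level thus lay between those of the 2 Luc sets and next to that of Jmjd1a. For Kif23 the order was 1995 ± 112 in Jmjd1a, 1964 ± 85 in Jmjd2c, 2690 ± 170.2 in Luc 4-6 and 1876 ± 60.4 in Luc 1-3. Here the arrays of Jmjd1a, Jmjd2c and Luc 1-3 overlap. Cenpa differs from this pattern, with 4313 ± 78.3 in Jmjd1a, 6441 ± 83.5 in Jmjd2c, 7471 ± 242 in Luc 4-6 and 5029 ± 162 in Luc 1-3, each knockdown below its own controls by a like amount.

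**Figure D4:**
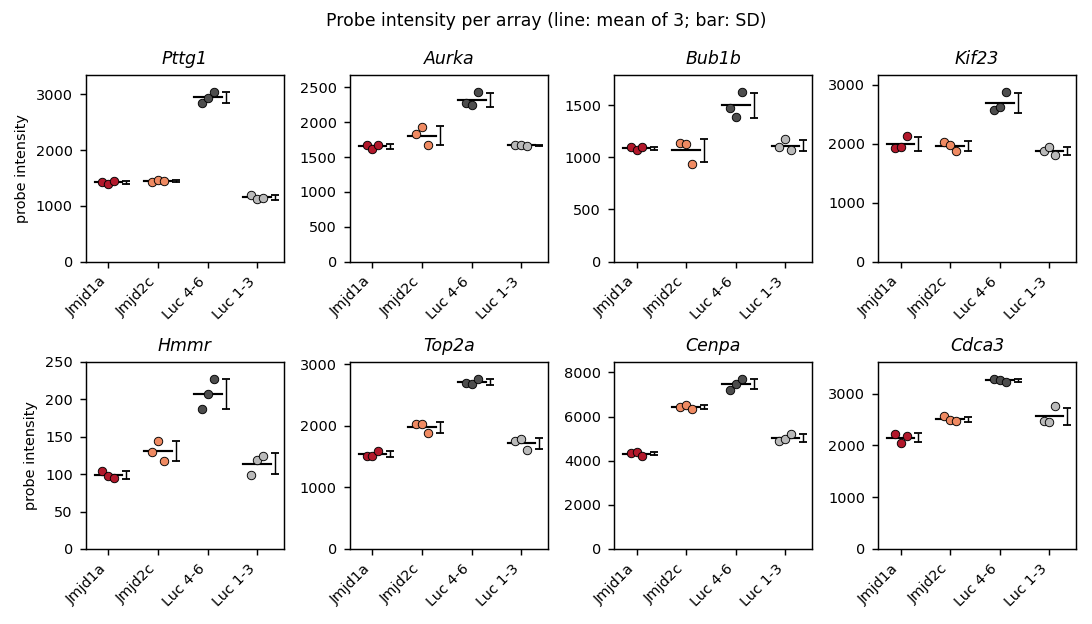
Probe intensity of 8 genes on each array, with 3 arrays each of Jmjd1a, Jmjd2c, Luc 4-6 and Luc 1-3; the line is the mean and the bar beside it the SD, and each axis starts at 0. In all 8 panels the Luc 4-6 points are the highest. In Pttg1, Aurka, Bub1b, Kif23, Hmmr and Cdca3 the Jmjd2c points come near those of the first set.

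The difference between the 2 knockdown effects was tested as an interaction, which uses 4 separate groups of arrays. It was called in 9 of 36 genes, all with a higher value for Jmjd1a, where 24.2% of all probes were called (12.4% in that direction). The largest was Pttg1, 1.33 ± 0.07 (SE; adjusted p = 4.99e-07), the only gene called in opposite directions in the 2 knockdowns. Kif23 followed with 0.54 ± 0.09 (SE; adjusted p = 0.00162) and Hmmr with 0.47 ± 0.15 (SE; adjusted p = 0.0416). The others were Bub1b (0.46), Smc4 (0.44, on its brightest probe), Aurka (0.35), Ect2 (0.34), Cdk1 (0.33) and Top2a (0.30). For Cenpa and Kif4 the effects differed by -0.01 and -0.01, with SE of 0.07 and 0.08. Across the 36 genes the changes in the 2 knockdowns had Pearson's r = 0.18 and Spearman's rho = 0.36, and r = 0.49 without Pttg1, which was left out after its values were seen; the genes share arrays and are not independent.

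In a wider list of mitotic genes the knockdown changes ran in both directions. Of 113 further names, 98 were on the array and 85 tested. In Jmjd1a 7 rose and 11 fell (median -0.01), 21.2% called against 25.5% of all tested probes. In Jmjd2c 14 rose and 18 fell (median 0.01), 37.6% called against 39.0% of all tested probes. In Luc 4-6 against Luc 1-3, 43 were higher and 10 lower (median 0.21), 62.4% called against 58.0% of all tested probes. After median centring 23 were higher and 28 lower (median -0.03), and over all probes lower calls then also outnumbered higher ones. The falls in Jmjd2c included Mybl2, which encodes B-Myb, with means of 645 ± 23.9 in Jmjd2c and 971 ± 31.3 in Luc 4-6 (-0.59, adjusted p = 2.83e-05), the mitotic kinase gene Pbk (-0.74) and Pimreg (-0.47). The rises were led by Stag2, a cohesin subunit (0.75), Foxm1, another activator of mitotic genes, with 270 ± 7.55 in Jmjd2c and 182 ± 9.35 in Luc 4-6 (0.57, adjusted p = 5.39e-05), and the cohesin regulator Pds5b (0.51). Mybl2 and Foxm1, both named above as regulators of the late wave, thus changed in opposite directions. In Jmjd1a, Mybl2 was lower too (-0.46, adjusted p = 0.000248), a value picked after it was seen, and Foxm1 had 0.05 (adjusted p = 0.686).

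The remaining genes were Cenpk (0.52), Stag2 (0.49) and Knl1 (0.38), which rose in Jmjd1a, and Cenpm (-0.58), Wee1, the inhibitory kinase of Cdk1 (-0.56), and Cep55 (-0.52), which fell. Stag2 therefore rose in both knockdowns. In Luc 4-6 against Luc 1-3 the largest rises were Pimreg (1.37), Fam83d (1.25) and Ckap2 (0.97), and the largest falls the APC/C subunit gene Cdc26 (-0.79), Stag2 (-0.56) and Cks2 (-0.53). By list, 13 of 16 further kinesin and spindle genes were higher there and 0 lower (8 and 1 after median centring). Of 13 genes of the APC/C core and its regulators, 6 were higher and 2 lower (3 and 5 after centring). Over all tested probes 37.1% were higher and 20.9% lower in Luc 4-6 before centring.

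Genes of the preceding phases were mostly lower in Luc 4-6. Of 46 tested G1/S and DNA replication genes, 5 were higher and 26 lower in Luc 4-6 (median -0.30), against 37.1% and 20.9% of all tested probes. After median centring 1 was higher and 38 lower, and over all probes lower calls then also outnumbered higher ones. As deposited, the largest falls were the cyclin genes Ccnd1 (-1.84) and Ccne1 (-1.22) and thymidine kinase, Tk1 (-0.83). E2f1 (0.73) rose. After Jmjd2c depletion 12 of the 46 rose and 7 fell (median 0.05), 41.3% called against 39.0% of all tested probes. After Jmjd1a depletion 2 rose and 12 fell (median -0.10), 30.4% called against 25.5% of all tested probes. Ccnd1 changed by 0.50 in Jmjd2c and by -0.41 in Jmjd1a. Whether G1/S and mitotic genes differ as groups was not tested.

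The promoter letters can be set beside the calls. Of the 15 genes that fell in Jmjd2c 13 had a window, and 11 of these held TTTGAA and 10 CCAAT. Of the 21 that did not pass 17 had a window, with 11 and 12. Pttg1 had the change farthest from 0 of the 36 genes in Jmjd2c against Luc 4-6 and between the Luc sets. It was among the 5 genes whose window held neither motif. All other genes printed above held both: Ube2c, Top2a, Aurka and Hmmr fell in Jmjd2c, while Cdk1 and Cdc20 did not pass. A link between motifs and calls was not tested.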

How the data were processed

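The authors deposited probe intensities on a linear scale, with a background subtracted, as 35.0% to 36.8% of the values per array lie below 0. Per the labels' protocols, biotin-labelled cRNA was made from 500 ng of total RNA with the TotalPrep kit; software, background method and scaling are not given in the sources used here. Intensities were used as deposited, floored at 32 (log2 of 5) and put on the log2 scale. The 15853 of 46133 probes above 32 on at least 3 of 12 arrays were fitted with limma 3.58.1 in R 4.3.3 (lmFit, eBayes; 4 groups, 8 residual degrees of freedom). Adjusted p-values are two-sided, by Benjamini-Hochberg over all tested probes, and a probe is called under 0.05.

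Symbols come from the array's annotation (29542 probes with 1 symbol, 11 with several, 16580 with none). The genes, lists and tests were chosen with earlier results of these data known. Per-array values are given for genes called in a knockdown and for the gene of each role that differed most between the Luc sets; of the wider lists, up to 3 called rises and falls per comparison. The test was run on simulated data with known changes. Alternatives covered floor, scaling, filter, control arrays, probe choice, variance model, replicate block and leaving out each array. Jmjd1a and Luc 1-3 share replicate numbers, but their deviations correlated by only -0.002, 0.014 and 0.108 in same-numbered arrays, so the numbers were not used as pairs. Jmjd2c 1-3 and Luc 4-6 share no number. Whether replicates came from separate experiments is stated only by the word biological in their titles.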

Additional observations from a re-analysis of the deposited data

Results flagged for a closer look

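The effects of the 2 knockdowns differed in 9 of the 36 tested genes, by limma's interaction test with adjusted p under 0.05, a share of 25% that is close to the 24.2% of all tested probes. The differences, as the Jmjd1a effect minus the Jmjd2c effect on the log2 scale, were 1.33 for Pttg1, 0.54 for Kif23, 0.47 for Hmmr, 0.46 for Bub1b, 0.44 for Smc4, 0.35 for Aurka, 0.34 for Ect2, 0.33 for Cdk1 and 0.30 for Top2a. Each Jmjd1a effect was taken against Luc 1-3 and each Jmjd2c effect against Luc 4-6, so knockdown and array set cannot be told apart in this difference. Dixon's test for a single array far from the rest made no call over the 6 Luc arrays in the 36 genes; since these arrays form 2 groups of 3 that do not overlap in 31 genes, it says nothing about single arrays.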

How the results depend on the processing

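The choice of control arrays changed most. Against the Luc arrays of the other set, changes turned positive in Jmjd2c for Aurka (0.115), Cdc25c (0.593), Cenpa (0.358), Ect2 (0.348), Hmmr (0.199), Kif23 (0.066), Kif2c (0.260), Nusap1 (0.469), Plk1 (0.070), Pttg1 (0.326), Top2a (0.208), Tpx2 (0.125) and Ube2c (0.047). In Jmjd1a they turned negative for Pttg1 (-1.050) and Smc4 (-0.168), and 31 genes were called. Against all 6 Luc arrays, Pttg1 turned to -0.373 in Jmjd1a, and in Jmjd2c Cdc25c (0.094), Cenpa (0.072), Kif2c (0.003) and Nusap1 (0.073) turned positive, with 0 genes and 1896 probes called. Median changes against all 6 and against the other set were -0.220 and -0.456 in Jmjd1a and -0.001 and 0.203 in Jmjd2c; 10091 probes were called in Jmjd1a against the other set. Smc4 in Jmjd1a turned to -0.092 on its second-brightest probe.

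Medians under other settings were -0.048 in Jmjd1a with median centring, and in Jmjd2c -0.200 (floor of 16), -0.191 (quantile normalization), -0.190 (probes above 32 on all 12 arrays) and -0.201 (second-brightest probe). Between the Luc sets they were 0.451 with quantile normalization, 0.225 with median centring (0.468 as deposited, with 18 genes higher in place of 28), 0.443 with the mean of a gene's probes and 0.409 with the second-brightest probe. Quantile normalization turned the balance of probes there to 4422 higher and 4589 lower, with 27 genes higher and 2 lower. In both knockdowns every call on a tested gene was kept with quantile normalization and with median centring, which called 6 and 5 genes in Jmjd1a and 18 and 16 in Jmjd2c. A trended, robust variance prior called 7 genes in Jmjd1a. As deposited, 25.5% of all tested probes were called in Jmjd1a and 39.0% in Jmjd2c. Shares of all probes under these settings and under the replicate block are not given here, so the counts are not read against a background. Without a filter, 2624 probes were called in Jmjd1a and 2331 in the difference of effects. Leaving out each array in turn gave 4 to 6 genes in Jmjd1a, 15 to 18 in Jmjd2c, 27 to 31 between the Luc sets and 7 to 9 in the difference, with medians of -0.036 to -0.014, -0.209 to -0.165 and 0.435 to 0.472, and ended no call on a named gene. Of all 15853 tested probes, 3264 to 4090, 5373 to 6213, 8559 to 9310 and 3296 to 3577 were then called, in the same order. The replicate block gave 5, 16, 30 and 9 genes in the same order and ended no call on a named gene; the deviations of same-numbered arrays correlated by at most 0.108. Weak signal limits Bub1, near the floor.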
